A study of Mus musculus with 12 samples.

Results

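The renin-angiotensin system was followed here through 9 genes measured in C166 cells, a mouse line labelled as endothelial that was derived from the yolk sac. The genes were taken as a pathway list: Agt, Ren1, Ace, Agtr1a, Agtr1b, Agtr2, Mas1, Enpep and Lnpep. All 9 have a probe set, out of 17306 tested probe sets that are not controls. The list was chosen by pathway and partly on log2 intensities of these same arrays, since low Agtr1a in VEGF-down cells and low Agt in VEGF-up cells were known when it was made. The values of Agt and Agtr1a are therefore given as a description, with no p-value.

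Total RNA from 12 samples of these cells was measured on arrays, 4 in each of 3 groups. VEGF-down cells carried a lentiviral vector with GFP and an shRNA aimed at a part of the Vegfa promoter that lowers Vegfa. VEGF-up cells carried GFP and an shRNA aimed at another part of that promoter that raises Vegfa. GFP cells carried the same kind of vector with the GFP marker alone. All were transduced at 20% confluency at a multiplicity of infection of 10, were given fresh medium after 72 h and were collected at day 7, when more than 99% of cells expressed GFP per the labels. Nothing states that the 4 samples of a group were grown separately, so a p-value reflects the spread among these arrays alone, which may be technical. The title of the series asks about effects of the shRNAs beyond Vegfa.

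In this system renin cuts angiotensinogen to angiotensin I, and angiotensin-converting enzyme trims that peptide to angiotensin II, which raises blood pressure and acts on vessel walls, kidney and adrenal. Most effects of angiotensin II pass through the AT1 receptor, which rodents encode with the paired genes Agtr1a and Agtr1b. The AT2 and Mas receptors are usually described as opposing it. Aminopeptidase A, the product of Enpep, cuts angiotensin II to angiotensin III, and the product of Lnpep is the binding site of angiotensin IV.

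Expression is given as the authors' array intensity on a linear scale, or as its log2 level. The arrays were alike in overall signal, with medians between 35.6 and 37.1 and between 62.7% and 63.6% of probe sets above background. Background was set at an intensity of 8.41, or 3.07 on the log2 scale, the 95th percentile of the mean log2 levels of 67 chemosensory receptor probe sets. Vegfa intensities ran from 88.2 to 98.0 in VEGF-down cells, from 163 to 205 in VEGF-up cells and from 140.3 to 166 in GFP cells, so that the VEGF-down arrays lay apart from GFP and the VEGF-up arrays overlapped with GFP.

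The endothelial label was checked against marker genes. Of 14 endothelial markers, 10 were at or below background on every array, among them Pecam1, Cdh5, Tie1, Tek, Eng, Erg and Vwf. The VEGF receptor gene Kdr was above background in all groups, at 8.30 ± 0.05 on the log2 scale in VEGF-down cells, 5.47 ± 0.23 in VEGF-up cells and 4.96 ± 0.002 in GFP cells (SD, n = 4 each), and Nos3, Flt1 and Esam were also above it. The GFP value of Kdr was near-constant, such as GCRMA gives a probe set near its own lowest level. So were Esam in all groups, at 3.14 (SD at most 0.005), and Flt1 in VEGF-down and GFP cells, at 3.275 and 3.282 (SD 0.005 and 0.003). Whether these genes were at such a level was not tested. If Kdr was so in GFP cells, its differences from GFP are lower bounds. The summed intensity of the 14 markers was 401 to 432 in VEGF-down cells, 139 to 158 in VEGF-up cells and 135 to 138 in GFP cells. Kdr, at a log2 difference of 3.34 in VEGF-down cells, leads this sum. It was the only marker of the 14 with a limma adjusted p under 0.05 against GFP. The median log2 difference of the 14 was -0.006 in VEGF-down and -0.005 in VEGF-up cells, beside -0.01 and -0.008 for all probe sets. The part of these markers in the results on the renin-angiotensin genes was not tested. Of 12 smooth muscle, pericyte and fibroblast markers, 10 had a mean above background, with Acta2 at 13.13 ± 0.03, 13.15 ± 0.045 and 13.20 ± 0.05 in VEGF-down, VEGF-up and GFP cells (SD, n = 4 each). Hepatocyte and visceral endoderm markers, which would mark cell types rich in angiotensinogen, were at or below background on every array for 8 of 10 genes, including Alb, Afp and Ttr. Foxa2 and Gata4 of that list were above background on all 12 arrays. Foxa2 was at 7.575 ± 0.015, 7.548 ± 0.034 and 7.378 ± 0.118 in VEGF-down, VEGF-up and GFP cells (SD, n = 4 each). Gata4 was nearer to background, at 3.50, 3.525 and 3.53, with an SD of 0.032, 0.003 and 0.005, so that it was near-constant in VEGF-up and GFP cells. Of 9 blood cell and macrophage markers, 6 were at or below background on every array, including Ptprc and Adgre1. Csf1r and Cd68 were above it on all 12 arrays, and Lyz2 on 1. Csf1r was at 6.57, 6.32 and 6.57 and Cd68 at 4.52, 4.71 and 5.04 in VEGF-down, VEGF-up and GFP cells.

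Of the 9 renin-angiotensin genes, 4 were above background on all 12 arrays: Agt, Agtr1a, Enpep and Lnpep. The other 5 were at or below it on all 12 arrays. They enter the counts over the 9 genes, but no change between groups is described for them. The genes above background were thus those of the precursor, of 1 angiotensin II receptor and of both peptidases, while the renin and converting enzyme genes were at background.

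**Figure D1:**
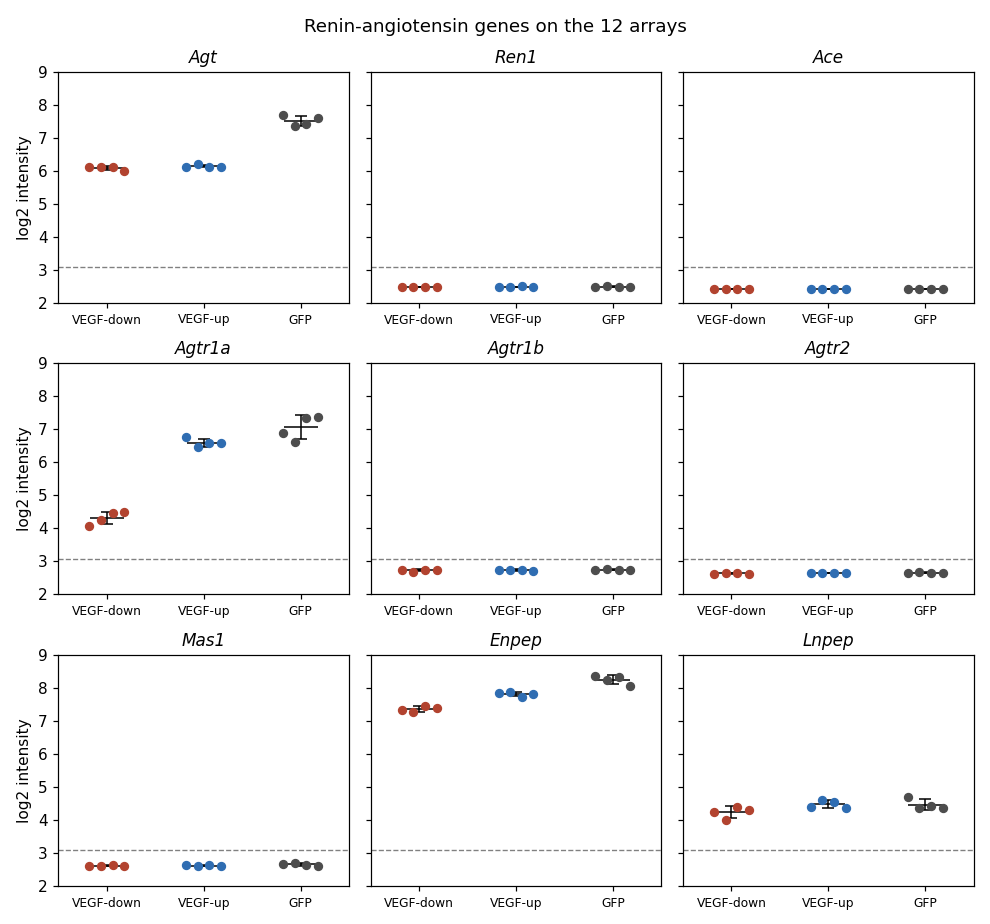
Log2 intensity of each renin-angiotensin gene on every array. Points are arrays (4 per group), black marks are group means with SD, and the dashed line is the background level of 3.07. Agt, Agtr1a, Enpep and Lnpep lie above the line in all groups and the other 5 genes below it in all groups.

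Here and below, a gene rose or fell where its log2 difference between groups had an adjusted p under 0.05 in a limma fit across all 17306 probe sets. For Agt and Agtr1a, whose values led to the choice of genes, such a call is only part of the description and no test. In VEGF-down cells the calls among the 9 genes were 0 higher and 3 lower, Agt, Agtr1a and Enpep, where 31.0% of all tested probe sets changed, 14.6% upward and 16.4% downward. In VEGF-up cells they were 0 higher and 2 lower, Agt and Enpep, where 13.2% of all probe sets changed, 6.73% upward and 6.51% downward. All VEGF-down arrays lay below all GFP arrays for 4 of the 9 genes, Ren1 at background being the fourth, as they did for 23.2% of all probe sets. All VEGF-up arrays lay below all GFP arrays for Agt and Enpep, as for 9.71% of all probe sets. The median log2 difference of the 9 genes was -0.035 in VEGF-down cells, with -0.015 in VEGF-up cells, beside -0.010 and -0.008 for all probe sets, and the -0.035 is the difference of Mas1, a gene at background. At an unadjusted limma p under 0.05, 7 genes were lower and 0 higher in VEGF-down cells, where 29.1% of all probe sets were lower and 17.3% higher. Of these 7, Ren1, Agtr2 and Mas1 were at background, with differences between -0.035 and -0.016. In VEGF-up cells 4 were lower, among them Mas1, and 0 higher, where 16.5% of all probe sets were lower and 11.6% higher. Both comparisons use the same 4 GFP arrays, and nothing is read from these counts, since known falls were part of the choice of genes. In these bulk samples, fewer cells of a type and less RNA per cell cannot be told apart. The direct comparison of VEGF-up with VEGF-down cells had 2 of the 9 genes higher, Agtr1a and Enpep, and 0 lower, where 30.6% of all probe sets changed, 15.1% higher and 15.5% lower. For the same 2 genes all VEGF-up arrays lay above all VEGF-down arrays, as for 16.5% of all probe sets.

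Agt, which encodes angiotensinogen, the only known precursor of the angiotensin peptides, was lower in both shRNA groups. Its intensity was 69.5, 69.7, 69.7 and 63.5 on the VEGF-down arrays, 69.8, 73.9, 69.9 and 69.6 on the VEGF-up arrays, and 208, 165, 171 and 193 on the GFP arrays. All 8 shRNA arrays lay below all 4 GFP arrays, and the shRNA groups overlapped with each other. On the log2 scale Agt was at 6.09 ± 0.07 in VEGF-down cells, 6.15 ± 0.04 in VEGF-up cells and 7.52 ± 0.16 in GFP cells (SD, n = 4 each). It was 2.70 times lower in VEGF-down than in GFP cells, a log2 difference of -1.43 ± 0.07 (SE), and 2.60 times lower in VEGF-up than in GFP cells, a log2 difference of -1.38 ± 0.07. Between VEGF-up and VEGF-down cells the log2 difference was 0.06, with a 95% interval from -0.09 to 0.21. Of the 8 shRNA arrays, 6 lay between 69.52 and 69.86, a near-constant value such as GCRMA gives a probe set near its own lowest level. Ece1 had such a value on all arrays, with a log2 level of 5.81, 5.81 and 5.82 and an SD of at most 0.005 in VEGF-down, VEGF-up and GFP cells. Whether Agt was at such a level in the shRNA groups was not tested. If it was, both folds against GFP are lower bounds, and the small difference between the shRNA groups does not show like expression. Vegfa itself was higher in VEGF-up than in VEGF-down cells by 1.004 ± 0.08 (SE) on the log2 scale.

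Enpep, the aminopeptidase A gene, was also lower in both groups, but by unequal amounts. Its intensity was 159.9, 154, 175 and 169 on the VEGF-down arrays, 228, 236, 211 and 224 on the VEGF-up arrays, and 326, 304, 319 and 264 on the GFP arrays. The groups did not overlap: every VEGF-down array was below every VEGF-up array, and every VEGF-up array below every GFP array. The fall was 1.84-fold in VEGF-down cells (log2 difference -0.88 ± 0.07 SE, limma adjusted p = 1.66e-06) and 1.35-fold in VEGF-up cells (-0.43 ± 0.07, limma adjusted p = 0.00133). The groups with shRNA differed from each other by 0.45 ± 0.07 on the log2 scale, higher in VEGF-up than in VEGF-down cells (limma adjusted p = 0.000267). An exact two-sided permutation test gave p = 0.0286 for each of these differences, the smallest p that 4 arrays against 4 allow, and 0.15 after adjustment over the 21 such tests of 7 genes.

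The promoters of Agt and Enpep are shown because these were the members lower with both shRNAs on all arrays. The sequences are RefSeq's, on GRCm38.p6, from 250 bases before to 50 bases after the annotated start of the gene, in the direction of the gene. They lie on the minus strand at chr8:124569657-124569956 for Agt and at chr3:129332700-129332999 for Enpep. Capitals mark TATAAA, the core of a TATA box, and TTCNNNGAA, the palindrome bound by STAT factors, on either strand.
Agt: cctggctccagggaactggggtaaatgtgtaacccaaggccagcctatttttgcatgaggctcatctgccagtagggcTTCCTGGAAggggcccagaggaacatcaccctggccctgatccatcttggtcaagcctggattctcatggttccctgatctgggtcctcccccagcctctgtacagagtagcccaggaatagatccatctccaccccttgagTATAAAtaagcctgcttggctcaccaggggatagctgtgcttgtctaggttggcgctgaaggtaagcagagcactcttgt
Enpep: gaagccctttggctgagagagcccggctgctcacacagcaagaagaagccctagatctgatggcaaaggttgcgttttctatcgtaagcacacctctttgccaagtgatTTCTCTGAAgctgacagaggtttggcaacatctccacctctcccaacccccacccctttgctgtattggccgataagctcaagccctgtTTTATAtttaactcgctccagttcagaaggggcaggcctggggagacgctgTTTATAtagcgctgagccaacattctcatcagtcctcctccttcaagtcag
Agt held TATAAA at 30 bases before the start, on the strand of the gene. Enpep held it on the other strand only, at 52 bases and at 1 base before the start. TTCNNNGAA began 172 bases before the start of Agt and 141 bases before that of Enpep. In all, 13.6% of the 32851 promoters in the table held TATAAA and 8.3% held TTCNNNGAA. On both strands, 4 more motifs were searched, and no motif matches overlapped in these promoters. CCAAT, the box bound by NF-Y, was held by 37.4% of promoters. The C/EBP-type motif TTGCNNAA was held by 10.8%. The hormone receptor core AGAACA was held by 19.0%. The motif ACGTG, found in sites of USF and HIF factors, was held by 19.6%. Agt matched none of these 4. Enpep had the CCAAT box 77 bases and the C/EBP-type motif 121 bases before the start, both on the other strand. A match describes the letters only and is not evidence of binding. The promoter table held 8 of the 9 members, all but Agtr1a.

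Ren1, the renin gene, had intensities from 5.53 to 5.57 in VEGF-down cells, from 5.54 to 5.64 in VEGF-up cells and from 5.58 to 5.67 in GFP cells. Ace, the gene of angiotensin-converting enzyme, lay between 5.30 and 5.35 on the 12 arrays. Both enzymes that lead from angiotensinogen to angiotensin II therefore had signals at background in all groups.

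Agtr1a, the main AT1 receptor gene of mouse vessels and kidney, was far lower in VEGF-down cells than in the other groups. Its intensity was 16.9, 19.2, 21.9 and 22.4 on the VEGF-down arrays, 109, 88.7, 95.5 and 96.3 on the VEGF-up arrays, and 119.7, 98.0, 163 and 167 on the GFP arrays. All VEGF-down arrays lay below all others, though still above background, while VEGF-up and GFP arrays overlapped. Group means on the log2 scale were 4.32 ± 0.19 in VEGF-down cells, 6.60 ± 0.12 in VEGF-up cells and 7.06 ± 0.37 in GFP cells (SD, n = 4 each). The highest GFP array was 1.71 times the lowest, the widest spread of any member within a group. Agtr1a was 6.71 times lower in VEGF-down than in GFP cells, a log2 difference of -2.75 ± 0.17 (SE), with a 95% interval from -3.11 to -2.38. In VEGF-up cells it was 1.38 times lower than in GFP cells, a log2 difference of -0.46 ± 0.17, with a 95% interval from -0.83 to -0.10. That interval is unadjusted, and as deposited the difference had no call. With 1 array left out it ran from -0.61 without GFP replicate 2, the lowest GFP array, to -0.36 without GFP replicate 4. It was -0.64 when the arrays were scaled to their poly-A spike-in controls. Relative to the median of all probe sets it was -0.456 both with that scaling and as deposited. VEGF-up cells had 4.86 times the Agtr1a level of VEGF-down cells, a log2 difference of 2.28 ± 0.17.

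The other receptor genes were at background. Agtr1b, the second AT1 receptor gene of rodents, ran from 6.41 to 6.71 in VEGF-down cells, from 6.52 to 6.72 in VEGF-up cells and from 6.71 to 6.75 in GFP cells. Agtr2, the AT2 receptor gene on chromosome X, lay between 6.17 and 6.36 on the 12 arrays. Mas1, which encodes the Mas receptor, lay between 6.08 and 6.45. Of the receptor genes in the list, only Agtr1a gave a signal above background, and it did so on all 12 arrays.

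Lnpep, which encodes insulin-regulated aminopeptidase, was dim but above background. Its intensity was 18.95, 15.92, 20.96 and 19.85 on the VEGF-down arrays, 20.90, 24.15, 23.38 and 20.45 on the VEGF-up arrays, and 26.09, 20.57, 21.55 and 20.51 on the GFP arrays. The ranges of all groups overlapped. The log2 difference was -0.23 ± 0.10 (SE) in VEGF-down cells (limma adjusted p = 0.102), with a 95% interval from -0.45 to -0.01. It was 0.01 ± 0.10 in VEGF-up cells (limma adjusted p = 0.970), with a 95% interval from -0.22 to 0.23. VEGF-up cells were 0.24 ± 0.10 above VEGF-down cells (limma adjusted p = 0.117).

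**Figure D2:**
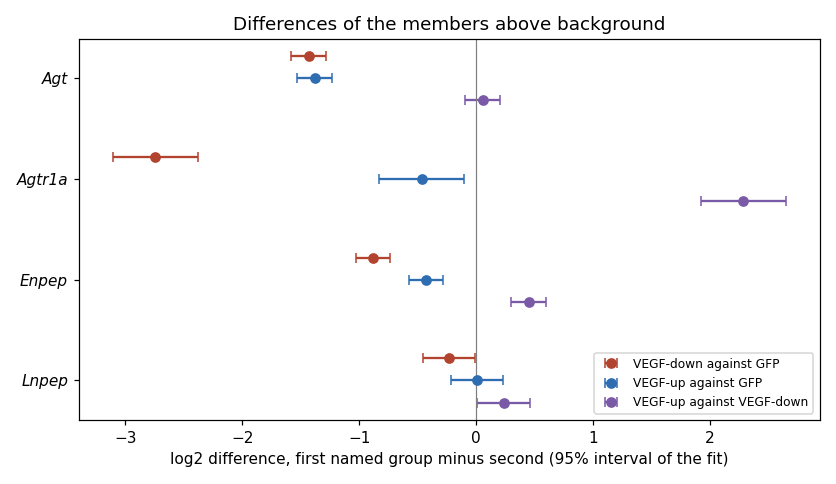
Log2 differences of the 4 genes above background in the 3 comparisons, as the first named group minus the second. Points are fitted differences and bars their unadjusted 95% intervals, which for Agt and Agtr1a are a description and no test. The Agt differences against GFP are -1.43 and -1.38, Agtr1a is at -2.75 and -0.46, Enpep at -0.88 and -0.43, and the interval of Lnpep in VEGF-up against GFP spans 0.

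Agt, Agtr1a and Enpep shared 1 order of group means, VEGF-down, VEGF-up and GFP from low to high, but not the same gaps. The pair of neighbours that overlapped was VEGF-down with VEGF-up for Agt and VEGF-up with GFP for Agtr1a. For Enpep no neighbours overlapped, and for Lnpep all did. The authors' deposited table for the VEGF-down shRNA lists 3 of the 9 genes, with Agtr1a 6.77 times lower, Agt 2.76 times lower and Enpep 1.81 times lower. The authors' deposited table for the VEGF-up shRNA lists 2 of them, with Agt 2.59 times lower and Enpep 1.325 times lower.

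Markers of smooth muscle, pericytes and fibroblasts, cell types in which Agtr1a and Enpep are known to be expressed, moved along with these genes in VEGF-down cells. Of the 12 markers, 0 rose and 8 fell in VEGF-down cells, where 14.6% of all probe sets rose and 16.4% fell. The markers had a median log2 difference of -0.52 beside -0.01 for all probe sets. The falls included Lum (-2.99), Col1a1 (-0.70), Tagln (-0.66), Cnn1 (-0.64) and Pdgfra (-0.56), while Acta2 was at -0.07 and Pdgfrb at -0.09. In VEGF-up cells 2 rose and 4 fell, with a median of -0.05, where 6.73% of all probe sets rose and 6.51% fell. Cnn1 rose by 0.83 and Thy1 by 0.20 (0.03 with spike-in scaling). Pdgfra fell by 0.67, Dcn by 0.36 and Pdgfrb by 0.20. Lum fell by 0.46, a call lost in 6 of the 8 fits that left out 1 array. The summed intensity of the 12 markers was 19886 to 20631 in VEGF-down cells, 21058 to 22193 in VEGF-up cells and 23987 to 24692 in GFP cells, and Cspg4 was at background on every array. Their part in the values of Agtr1a and Enpep was not tested.

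Enzymes outside the 9 genes that cut angiotensin peptides were followed as a list of 17, of which 11 had a mean above background. In VEGF-down cells 0 rose and 7 fell, and 2 of those, Klk1 and Mcpt4, were at background with differences of -0.02 and -0.01. With median centring 10 fell, and with spike-in scaling all 17 fell. As deposited, 16.4% of all probe sets fell, a share that these scalings also raise. In VEGF-up cells 1 rose and 1 fell, where 13.2% of all probe sets changed, or 0 and 3 with spike-in scaling. The list's median was -0.010 in VEGF-down and -0.007 in VEGF-up cells, beside -0.010 and -0.008 for all probe sets. The fall of Mcpt4 was lost in 5 of the 8 fits that left out 1 array. Mme, which encodes neprilysin, a peptidase that shortens angiotensin I, was at 7.26 ± 0.06 on the log2 scale in VEGF-down cells, 7.20 ± 0.04 in VEGF-up cells and 7.74 ± 0.04 in GFP cells (SD, n = 4 each). It fell in VEGF-down cells by 0.48 ± 0.03 (SE, limma adjusted p = 9.00e-07) and in VEGF-up cells by 0.55 ± 0.03 (limma adjusted p = 2.83e-06). Prcp, a carboxypeptidase that inactivates angiotensin II, fell in VEGF-down cells by 0.81 ± 0.08 (limma adjusted p = 8.74e-06) and was at -0.08 in VEGF-up cells. The difference of Prcp between VEGF-up and VEGF-down cells was 0.73 (limma adjusted p = 1.70e-05). Prep, prolyl endopeptidase, fell by 0.20 in VEGF-down cells and rose by 0.21 in VEGF-up cells, a rise that was 0.04 and no longer passed with spike-in scaling. Dpp3 fell by 0.21 and Ctsa by 0.17 in VEGF-down cells.

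Receptor partners and effectors numbered 16 measured genes of 18 listed, 13 of them with a mean above background. In VEGF-down cells 4 rose and 6 fell, in VEGF-up cells 2 rose and 2 fell, and VEGF-up against VEGF-down cells had 7 higher and 4 lower. Of all probe sets, 31.0%, 13.2% and 30.6% changed in these comparisons. With spike-in scaling, VEGF-down cells had 4 rises with 12 falls, and VEGF-up cells had 1 rise with 4 falls. That scaling also raised the share of all probe sets that fell in both shRNA groups. The list's median was -0.013 in VEGF-down and -0.008 in VEGF-up cells. Mtus1, whose product binds the AT2 receptor, rose in VEGF-down cells by 1.16 ± 0.05 on the log2 scale (SE, limma adjusted p = 9.06e-09) and fell in VEGF-up cells by 0.59 ± 0.05 (limma adjusted p = 1.01e-05). Its log2 level was 7.69 ± 0.03 in VEGF-down cells, 5.95 ± 0.07 in VEGF-up cells and 6.54 ± 0.08 in GFP cells (SD, n = 4 each). Rgs2, which dampens signalling of the Gq protein behind the AT1 receptor, fell in VEGF-down cells by 0.98 ± 0.05 and rose in VEGF-up cells by 0.41 ± 0.05 (limma adjusted p = 5.75e-08 and 0.000209). Plcb1, a phospholipase C that Gq activates, rose in VEGF-down cells by 1.63 ± 0.05 (limma adjusted p = 9.81e-10) and was at -0.01 in VEGF-up cells.

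The kinase gene Jak2 rose by 0.89 and the arrestin gene Arrb1 by 0.62 in VEGF-down cells. The second arrestin gene, Arrb2, fell by 0.43 there, Gnaq, the alpha subunit of Gq, by 0.30 and Plcb3 by 0.20. Arap1, which encodes a protein that regulates AT1 receptor traffic, also fell by 0.20, but not without GFP replicate 2 or without GFP replicate 3. Gna11, a second Gq-class subunit, rose by 0.22 in VEGF-up cells, a call lost with spike-in scaling, at 0.05. Atp6ap2, the prorenin receptor gene, fell by 0.32 in VEGF-down cells. In VEGF-up cells it was at -0.08, a call that was lost in 6 of the 8 fits that left out 1 array (limma adjusted p = 0.0497, and up to 0.139 in those fits). Agtrap, which encodes a protein that binds the AT1 receptor tail, was at 3.54, 3.54 and 3.55 on the log2 scale in VEGF-down, VEGF-up and GFP cells, close to background.

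Genes that angiotensin II is known to induce in vessel walls moved in both directions. Of 21 measured of 22 listed, 17 had a mean above background. In VEGF-down cells 5 rose and 7 fell, and in VEGF-up cells 2 rose and 6 fell, with medians of -0.015 and -0.007, where 31.0% and 13.2% of all probe sets changed. In VEGF-down cells 5 rose and 11 fell with median centring, and 3 rose and 15 fell with spike-in scaling. In VEGF-up cells 4 rose and 6 fell with median centring, and 1 rose and 8 fell with spike-in scaling. Spike-in scaling also raised the share of all probe sets that fell in both comparisons. The EGF receptor ligand genes Areg and Hbegf fell by 1.40 and 0.58 in VEGF-down cells and were at 0.13 and 0.08 in VEGF-up cells. Ccn1, a matricellular protein gene, rose by 0.53 in VEGF-down cells and fell by 0.33 in VEGF-up cells. The endothelin gene Edn1 was at -0.08 and -0.04, with neither difference past the test. Ccl2 fell by 0.69 in VEGF-down and by 1.52 in VEGF-up cells, Icam1 by 0.52 and 0.60, Vcam1 by 0.66 and 0.56 and Egr1 by 0.70 and 0.23. Il6 rose by 1.88 and 0.71, though the rise of Il6 in VEGF-up cells was lost in 5 of the 8 fits that left out 1 array. The oxidase genes Nox4 and Cybb were at background. Ccn2, another matricellular protein gene, rose by 0.32 in VEGF-down cells, or 0.01 with no call under spike-in scaling. The rise of Fos there, 0.87, was lost without GFP replicate 1. The rise of Spp1 in VEGF-down cells, 0.21, turned to -0.10 with spike-in scaling, and that of Fn1 in VEGF-up cells, 0.13, to -0.04.

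**Figure D3:**
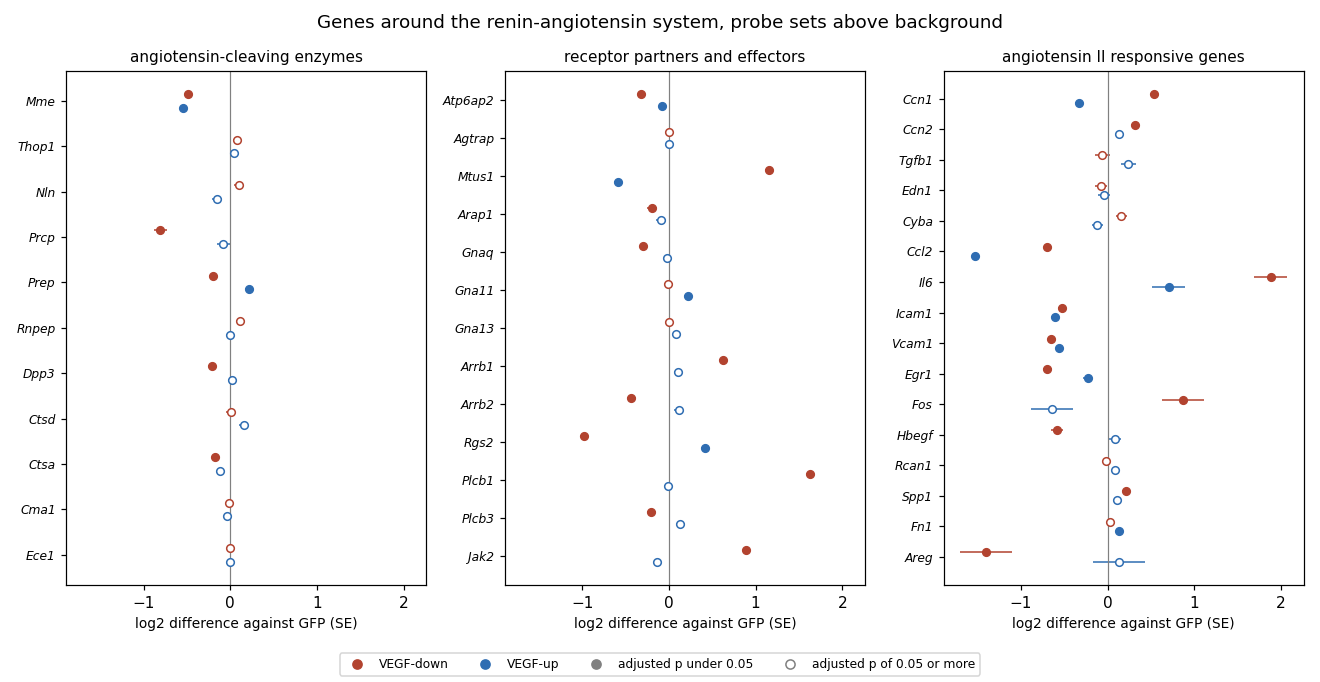
Log2 differences against GFP, with SE, for genes with a mean above background in the lists of angiotensin-cleaving enzymes, receptor partners and effectors, and angiotensin II responsive genes. Filled points passed the limma test (adjusted p under 0.05). Mtus1 and Rgs2 lie on opposite sides of 0 with the different shRNAs (1.16 and -0.59, -0.98 and 0.41).

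In the mineralocorticoid axis, the hormone pathway that angiotensin II drives in the adrenal, 9 of 10 listed genes were measured and 4 had a mean above background. In VEGF-down cells 1 rose and 1 fell, in VEGF-up cells 0 rose and 1 fell, and the median was -0.008 in both. Of all probe sets, 31.0% changed in VEGF-down and 13.2% in VEGF-up cells. With spike-in scaling, VEGF-down cells had 1 rise with 7 falls, and VEGF-up cells had 0 rises with 3 falls. The share of all probe sets that fell was raised by that scaling as well. Hsd11b2, whose enzyme shields the mineralocorticoid receptor from glucocorticoids, was at 4.71 ± 0.24 on the log2 scale in VEGF-down cells, 6.48 ± 0.07 in VEGF-up cells and 6.60 ± 0.10 in GFP cells (SD, n = 4 each). It fell in VEGF-down cells by 1.89 ± 0.10 (SE, limma adjusted p = 1.35e-07) and was at -0.12 in VEGF-up cells. Hsd11b1, which encodes the enzyme that works in the other direction, was at 4.12 ± 0.65, 3.27 ± 0.02 and 3.28 ± 0.01 in VEGF-down, VEGF-up and GFP cells. Its rise in VEGF-down cells, 0.84 ± 0.25 (limma adjusted p = 0.0241), lost its call without GFP replicate 2 (adjusted p = 0.0509), and its difference was 0.52 without VEGF-down replicate 3. The aldosterone-induced kinase gene Sgk1 fell by 0.46 in VEGF-up cells (limma adjusted p = 0.00317) and was at -0.06 in VEGF-down cells. The aldosterone synthase gene Cyp11b2 was at background.

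Of the kinin system, whose peptides angiotensin-converting enzyme degrades, 6 of 7 listed genes were measured, and only Kng1 and Bdkrb1 had means above background. As deposited, none of the 6 passed limma's test in any of the 3 comparisons. At an unadjusted p under 0.05 there were 2 in VEGF-down against GFP, where 46.4% of all probe sets passed, and 0 in VEGF-up against GFP and in VEGF-up against VEGF-down, where 28.1% and 36.0% did. In VEGF-down against GFP 3 fell with median centring and 5 with spike-in scaling. In VEGF-up against GFP 1 fell with spike-in scaling, and in VEGF-up against VEGF-down 3 were higher with median centring. The share of all probe sets called in the same direction also grew in each of these cases. The median was -0.012 in VEGF-down and -0.010 in VEGF-up cells. Among transcription factors known to act on Agt or Ren1, 16 of 18 were measured and 14 had a mean above background, with medians of -0.039 in VEGF-down and -0.058 in VEGF-up cells. In VEGF-down cells 3 rose and 3 fell: Cebpd rose by 1.04 ± 0.14 (limma adjusted p = 0.000201), Rela fell by 0.40, Cebpb by 0.38 and Hif1a by 0.35. Stat3 rose by 0.25 in VEGF-down cells as deposited, against -0.06 with spike-in scaling, and Vdr rose by 0.11, against -0.20, and was lost in 7 of the 8 fits that left out 1 array. In VEGF-up cells 0 rose and 3 fell: Stat3 fell by 0.38 (limma adjusted p = 1.85e-05), Nfkb1 by 0.22 and Cebpb by 0.13, the last lost in 4 of the 8 fits that left out 1 array. At an unadjusted limma p under 0.05, 5 of the 16 differed there, where 28.1% of all probe sets did. As deposited, 31.0% of all probe sets changed in VEGF-down and 13.2% in VEGF-up cells. With spike-in scaling, VEGF-down cells had 1 rise with 13 falls of these factors, and VEGF-up cells had 0 rises with 7 falls. This scaling also raised the share of all probe sets that fell. The hepatocyte factor gene Hnf4a was at background, and the glucocorticoid receptor gene Nr3c1 was at 0.01 and -0.04 in VEGF-down and VEGF-up cells.

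For Agt, Agtr1a and Enpep, the genes with the most similar pattern were sought among 10751 other named genes with a mean above background, by Pearson's r of log2 levels over the 12 arrays. These values are a description, since the 12 points share 3 groups and the same arrays. For Agt they were Apoe (r = 0.994), the apolipoprotein E gene, the lymphatic growth factor gene Vegfc (0.992), the hydrolase gene Cmbl (0.986), the growth factor gene Igf2 (0.984) and the fast skeletal myosin gene Myh1 (0.981). Apoe differed by -1.38 in VEGF-down cells, with -1.33 in VEGF-up cells, and Myh1 by -1.52 and -1.47, sizes near those of Agt. Apoe, like Agt, was near-constant in the shRNA groups, with 7 of 8 arrays between 3.519 and 3.532 on the log2 scale. Myh1 varied little there too, from 4.025 to 4.077 in VEGF-down and from 4.098 to 4.144 in VEGF-up cells. Whether Apoe and Myh1 were near their own lowest levels there was not tested. If they were, their differences from GFP are lower bounds. Vegfc (-0.83 and -0.84), Cmbl (-0.87 in both) and Igf2 (-0.68 and -0.69) had smaller differences that were again of similar size with both shRNAs.

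For Agtr1a the closest were Npl (r = 0.993), a sialic acid lyase gene, the small GTPase gene Rasl11b (0.991), Pgrmc1 (0.991), which encodes a membrane-bound heme protein, Tmem132a (0.990) and Id4 (0.989), which encodes a helix-loop-helix inhibitor. Their VEGF-down differences ran from -1.89 for Npl to -0.35 for Pgrmc1, all smaller than that of Agtr1a. Their VEGF-up differences ran from -0.305 for Rasl11b to -0.06 for Pgrmc1. For Enpep the closest were Etl4 (r = 0.9753), the Wnt modulator gene Sfrp2 (0.9751), the matrix gene Aspn (0.975), the protease gene Bace1 (0.974) and the ephrin ligand gene Efna1 (0.973). Sfrp2 and Aspn differed by -2.65 and -2.74 in VEGF-down cells and by -1.25 and -1.22 in VEGF-up cells. Sfrp2 was at 3.614, 3.624, 3.633 and 3.903 on the VEGF-down arrays, so its difference there may be a lower bound. Bace1, at -0.86 and -0.44, came closest to the sizes of Enpep.

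**Figure D4:**
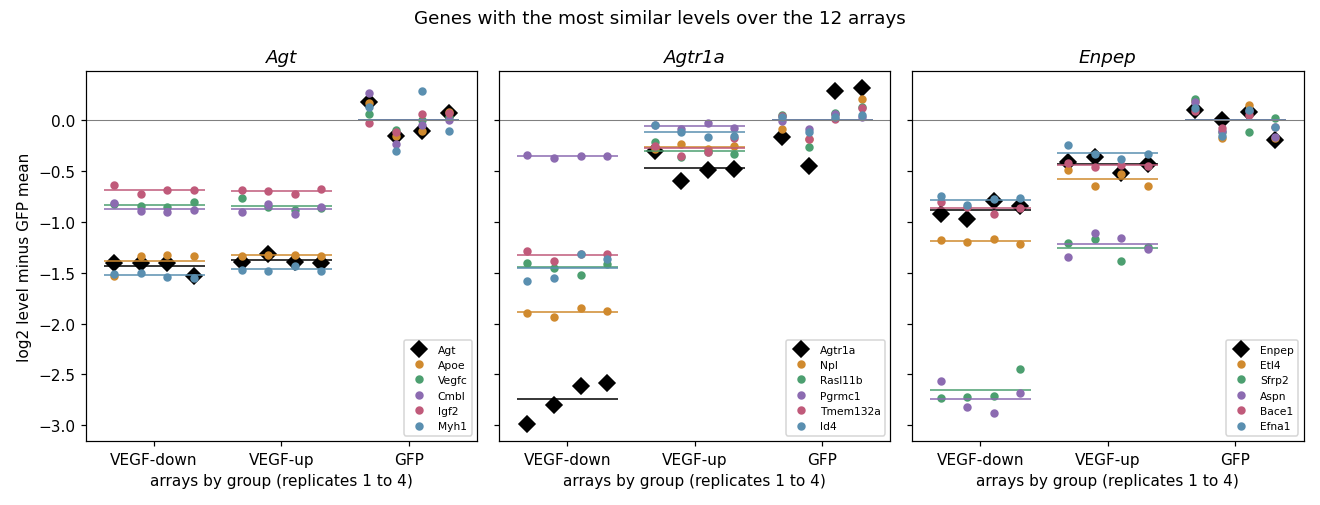
Log2 level minus the GFP mean on every array for Agt, Agtr1a and Enpep (black diamonds) and the 5 genes most alike to each, with horizontal lines at group means. The Agt panel has steps of similar size with both shRNAs (-1.43 and -1.38 for Agt), the Agtr1a panel a step mainly in VEGF-down cells (-2.75, against -0.46 in VEGF-up cells) and the Enpep panel a graded one (-0.88 and -0.43).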

How the data were processed

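The authors deposited intensity values per probe set, whose linear scale was read from their range of 3.04 to 17470.06. GCRMA is the tool that the submitters' processing notes name, without a version. GCRMA corrects background, normalizes arrays to each other and summarizes probes. It gives dim probe sets nearly constant values, so very small standard deviations there do not show precision. For each shRNA there is also a deposited table with a fold change, a score, a p-value and a q-value per listed gene, and per the file headers the test behind them is unnamed.

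Probe sets are named by Entrez number. RefSeq's table (GRCm38.p6) gave symbols for 16944 of 17306 tested probe sets. The platform table names 16464 of them with 0 disagreements, and Ren1 and Lnpep are among the 480 named by RefSeq alone. Values were log2-transformed without an offset. limma 3.58.1 (R 4.3.3) fitted 1 mean per group to all 12 arrays with lmFit and eBayes with a variance trend. Tests were two-sided, Benjamini-Hochberg adjustment ran over 17306 probe sets, and "rose" or "fell" means an adjusted p under 0.05. Fits were tested on simulated data. Exact permutation tests were added for members other than Agt and Agtr1a. The members, lists and background class were chosen with earlier results of these data known, and Kdr, Ccl2, Il6, Icam1, Vcam1, Lum, Tagln, Pdgfra, Vegfc, Sfrp2 and Aspn were named in them, so they are no independent support. Named genes are the members, genes of the 10 fixed lists, Vegfa and the 5 genes most alike to each of Agt, Agtr1a and Enpep. Alternatives were quantile normalization, median centring, scaling to 12 poly-A spike-in probe sets, a filter on dim probe sets, an offset of 16, no variance trend, only the 8 arrays compared, a replicate block and leaving out each array. The main fit did not pair arrays by replicate number. Of 12 same-number pairs, 1 had a residual correlation over 0.1, and the range was -0.09 to 0.16. Pairs of unlike number were not compared with these, so a pairing is not excluded. The number of arrays limits the precision. Counts and medians of the lists cover all measured members, including 2 that are not reported here by name.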

Additional observations from a re-analysis of the deposited data

Results flagged for a closer look

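Of the 27 sets of 4 arrays examined (9 genes in 3 groups), 6 had 1 array apart from the other 3. Chance flags about 1 in 20 where values are independent and normal. Near-constant values on shared arrays are not of that kind, so no excess is read from the 6. Agt was at 63.46 in VEGF-down replicate 4, below 69.52 to 69.67 in the other 3, and at 73.91 in VEGF-up replicate 2, above 69.63 to 69.86, so 6 of the 8 shRNA arrays fell between 69.52 and 69.86. The other 4 were in genes at background: Ren1 at 5.64 in VEGF-up replicate 3 and 5.67 in GFP replicate 2, Agtr1b at 6.41 in VEGF-down replicate 2 and Agtr2 at 6.36 in GFP replicate 2. The effects of the shRNAs against GFP differed for Agtr1a and Enpep: VEGF-up minus VEGF-down was 2.28 for Agtr1a, given as a description, and 0.45 for Enpep (limma adjusted p = 0.000267).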

How the results depend on the processing

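The differences of Enpep kept their direction and passed the threshold in every alternative. For Agt and Agtr1a, which are described without a test, the alternatives give values only. Agtr1a in VEGF-up against GFP, -0.46 as reported, was -0.64 with spike-in scaling, and from -0.61 (without GFP replicate 2) to -0.36 when 1 array was left out. With spike-in scaling the median of all probe sets shifted to -0.32 in VEGF-down and -0.18 in VEGF-up cells, and Agt was at -1.74 and -1.55. Lnpep in VEGF-up against GFP, 0.01 as reported, had the other sign with spike-in scaling (-0.17) and without VEGF-up replicate 2 (-0.035), VEGF-up replicate 3 (-0.02), GFP replicate 2 (-0.03), GFP replicate 3 (-0.01) or GFP replicate 4 (-0.03), within a range up to 0.087. Lnpep passed the threshold with median centring and spike-in scaling in VEGF-down against GFP (-0.25 and -0.54) and in VEGF-up against VEGF-down (0.27 and 0.37). The number of changed probe sets in VEGF-down against GFP, 5358 as deposited with 47.1% rises, was 10708 after median centring (23.8% rises) and 15048 with spike-in scaling (4.5% rises). In VEGF-up against GFP it was 2291 with 50.9% rises as deposited, and 3362 with 5.3% rises with spike-in scaling. In VEGF-up against VEGF-down it was 5288 with 49.3% rises as deposited, 11521 with 78.3% rises after median centring and 4668 with 73.2% rises with spike-in scaling. The cause was not tested. With the replicate block, the counts were 4876, 2085 and 5084, and the Enpep differences from GFP had the same calls; no call of Enpep or Lnpep changed. When 1 array was left out, the counts ran from 4557 to 5277, from 1883 to 2455 and from 4836 to 5054. Counts of changed genes in the 10 lists moved by over 1.5 times in 30 refits under the other alternatives, against 210 that did not, and in 12 with 1 array left out, against 228. Signal near background limits Ren1, Ace, Agtr1b, Agtr2 and Mas1.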
